A study of Mus musculus with 7 samples.

Results

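Col4a1, Col4a2, Col6a3 and Col11a2 are 4 of the 44 collagen chain genes in a table of 27179 genes counted in mouse alveolar macrophages, phagocytes that live on the air side of the lung. They were chosen by name because an earlier look at these libraries found them higher without Suz12, so their difference between genotypes is given below as a description and is not tested. Their levels are set against the other 40 collagen genes, which a symbol pattern picked out, and against genes that fold, bind or cut collagen. The cells were flow-sorted out of lungs of C57BL/6-Ly5.1 recipients that had been lethally irradiated. The Suz12 cKO group (3 libraries) received 90% Suz12 cKO Ly5.2 marrow and the wild type group (4 libraries) 90% wild type Ly5.2 marrow. Both groups also received 10% wild type Ly5.1 marrow. The sources used here state neither whether cells of that minor donor were gated out, nor the Cre line, the deleted exons or the age of the mice. The design text calls the libraries biological replicates.

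Collagens are trimeric matrix proteins built from chains that wind into a triple helix. Col4a1 and Col4a2 encode the α1 and α2 chains of type IV collagen, which pair in the same trimer and form the network of nearly every basement membrane, including that of the alveolar wall. Col6a3 encodes the α3 chain of type VI collagen, which makes beaded filaments at the cell border and is classically assembled with the products of Col6a1 and Col6a2. Col11a2 encodes the α2 chain of type XI collagen, best known from cartilage, where it joins fibrils with the products of Col11a1 and Col2a1. Suz12 is a core subunit of polycomb repressive complex 2 (PRC2), which methylates histone H3 and keeps developmental genes silent.

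The libraries held between 48104653 and 79281431 counts, more than the number of reads the design text states, and no source used here says why. Detection limits below, taken as 3 counts, cover counting error only. Suz12 itself stood at 22.1, 23.6 and 15.1 CPM (TMM-scaled counts per 1000000) in Suz12 cKO, against 56.5, 56.3, 73.9 and 68.9 CPM in wild type (log2 fold change -1.65, SE 0.18, edgeR adjusted p = 0.00134). The 12 alveolar macrophage markers were all above 3 counts in all 7 libraries; edgeR called 4 higher (Itgax, Marco, Fabp4 and Mrc1) and 0 lower, beside 6.28% and 4.02% of all tested genes, while Siglecf and Cd68 had lower, non-overlapping levels in Suz12 cKO without being called. RNA of red cells, read as unscaled haemoglobin CPM, was highest in Suz12 cKO replicates 1 (146) and 2 (108), followed by wild type replicate 2 (39.7), and lay between 1.94 and 3.72 in the remaining 4 libraries. Fewer cells of a type and less RNA per cell cannot be told apart in such bulk libraries.

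Col4a1 (Entrez 12826, chr8:11198423-11312889, minus strand) and Col4a2 (Entrez 12827, chr8:11312805-11449287, plus strand) lie head to head in GRCm38, the assembly to which the submitters' mm10 build corresponds. Col6a3 (Entrez 12835) lies at chr1:90766860-90844001 on the minus strand and Col11a2 (Entrez 12815) at chr17:34038919-34066684 on the plus strand. The gene spans of Col4a1 and Col4a2 given here overlap by 85 bases, and the starts listed in the RefSeq promoter table by 22. These are shown on the Col4a2 strand (chr8:11312805-11312826), followed by the 120 bases upstream of the start listed there for Col6a3 (chr1:90843972-90844091, minus strand) and for Col11a2 (chr17:34039018-34039137, plus strand). They are shown because the type IV genes share their start region, and because the regions differ in CpG content. Capitals mark CpG dinucleotides. The Col11a2 stretch lies wholly, and the Col6a3 stretch partly, inside the gene spans given above, so upstream refers only to the starts of the promoter table. GENCODE starts Col11a2 at chr17:34039437.
Col4a1/Col4a2 shared start: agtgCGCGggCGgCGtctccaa
Col6a3 upstream: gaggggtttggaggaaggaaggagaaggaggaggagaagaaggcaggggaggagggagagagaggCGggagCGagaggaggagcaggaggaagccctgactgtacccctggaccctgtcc
Col11a2 upstream: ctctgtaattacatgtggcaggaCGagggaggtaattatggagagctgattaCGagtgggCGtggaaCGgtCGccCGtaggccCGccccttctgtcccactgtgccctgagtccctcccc
Over the whole 300-base RefSeq window of each start, Col4a1 held 37 CpG, Col4a2 33, Col11a2 16 and Col6a3 3, against a median of 7 over 32851 windows. A window with fewer CpG than Col4a1 was found in 94.4% of cases, than Col4a2 in 91.4%, than Col11a2 in 67.0% and than Col6a3 in 23.3%. The type IV windows overlap, so their contents are not independent. The letters GGGCGG (GC box), searched on both strands, were present in the Col4a1, Col4a2 and Col11a2 windows and in 35.7% of all windows. CCAAT was present in both type IV windows and in 37.4% of all windows, and TATAAA in the Col11a2 window and in 13.6% of all. None of the 3 motifs was present in the Col6a3 window. A match or its absence is a description of these letters alone.

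Col4a1 and Col4a2 were the collagen genes with the highest levels in Suz12 cKO macrophages, and neither came near that level in any wild type library. Col4a1 stood at 502, 474 and 402 CPM in Suz12 cKO replicates 1 to 3, against 23.3, 30.6, 1.21 and 0.0206 CPM in wild type replicates 1 to 4. Col4a2 stood at 495, 462 and 429 CPM in Suz12 cKO, against 23.2, 28.3, 1.14 and 1.32 CPM in wild type. The groups did not overlap for either gene, the Suz12 cKO libraries lay close together, and the wild type libraries fell into a higher pair (replicates 1 and 2) and a lower pair (replicates 3 and 4). Col4a1 averaged 459 ± 51.7 CPM in Suz12 cKO and 13.8 ± 15.5 CPM in wild type, and Col4a2 averaged 462 ± 32.9 CPM in Suz12 cKO and 13.5 ± 14.3 CPM in wild type (SD, n = 3 and n = 4). The log2 fold changes were 5.05 (SE 1.33) and 5.09 (SE 1.06), a fitted 33.2-fold and 34.1-fold. Without wild type replicate 2 they were 5.78 and 5.72, and within the 3 libraries high in haemoglobin 4.00 and 4.08.

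Per unit of gene length the type IV genes stood at nearly equal levels in every library but 1. In RPKM (CPM per kilobase of the deposited gene length), Col4a1 was 0.986, 0.996 and 0.910 times Col4a2 in the Suz12 cKO libraries, against 0.974, 1.05 and 1.03 times in wild type replicates 1, 2 and 3. In wild type replicate 4 the ratio was 0.0152, from 1 count of Col4a1 against 64 counts of Col4a2. That library therefore stands apart for Col4a1 alone, while its Col4a2 level was like that of wild type replicate 3. The type IV genes share 22 exon bases in GENCODE and their RefSeq spans overlap by 85, and the antisense gene Gm15419 shares 43 exon bases with Col4a2. The strand setting of the counting is not stated, so reads from these bases cannot be assigned with certainty. Col4a1 has 7464 and Col4a2 6619 annotated exon bases in GENCODE.

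Col6a3 showed the same contrast at a lower level. Its level was 185, 209 and 154 CPM in Suz12 cKO, against 10.7, 10.3, 1.26 and 0.763 CPM in wild type. The groups did not overlap, and wild type replicates 1 and 2 were again the higher pair. The means were 182 ± 27.6 CPM in Suz12 cKO and 5.78 ± 5.51 CPM in wild type (SD, n = 3 and n = 4), with a log2 fold change of 4.97 (SE 0.83). It was 5.46 without wild type replicate 1 and 4.25 within the 3 libraries high in haemoglobin.

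Col11a2 differed from the other 3 in the size of its contrast: it was higher by less than a doubling in Suz12 cKO. Like Col4a2 and Col6a3, and unlike Col4a1, Col11a2 was above 3 counts in all 7 libraries. Its level was 11.4, 15.6 and 13.8 CPM in Suz12 cKO, against 9.20, 8.80, 7.58 and 5.73 CPM in wild type. The groups did not overlap, and the lowest Suz12 cKO library lay close above the highest wild type library. The means were 13.6 ± 2.11 CPM in Suz12 cKO and 7.83 ± 1.56 CPM in wild type (SD, n = 3 and n = 4), for a log2 fold change of 0.80 (SE 0.22), a fitted 1.74-fold. Its fold change ranked 2342 from the top of the 14436 genes tested, against 117, 122 and 128 for Col4a2, Col4a1 and Col6a3. Among all tested genes edgeR called 6.28% higher in Suz12 cKO, and in 14.1% each Suz12 cKO library lay above each wild type library. All 4 collagen genes were chosen on this contrast, so nothing is read from their number.

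**Figure D1:**
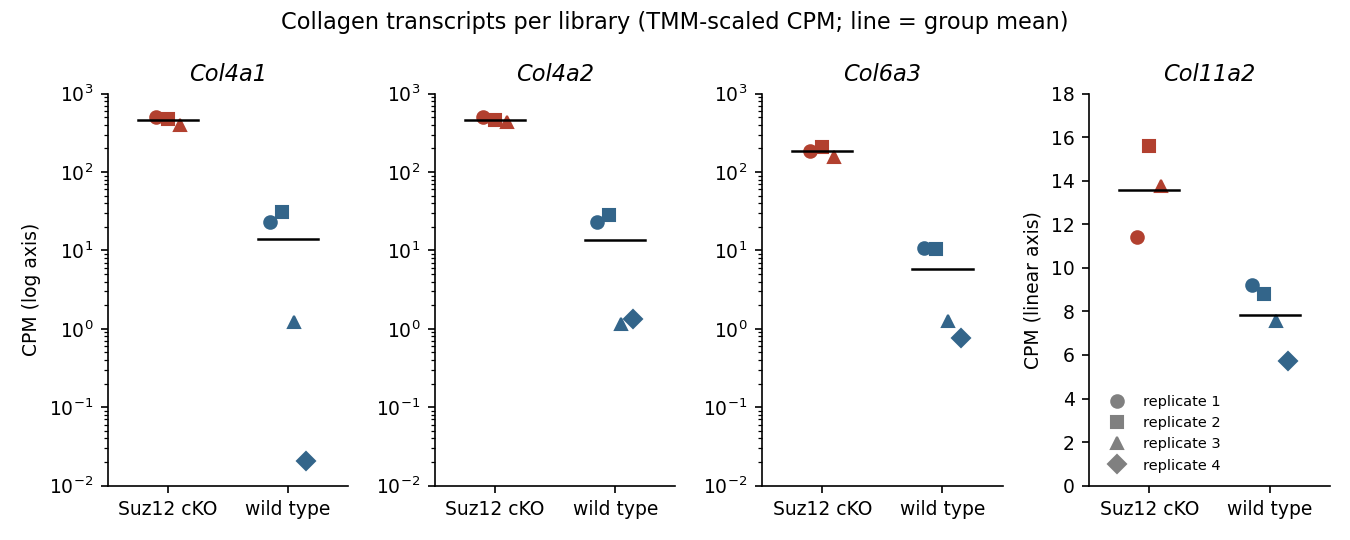
CPM of the 4 collagen genes in each of the 3 Suz12 cKO (red) and 4 wild type (blue) libraries, with the group mean as a line; the Col4a1, Col4a2 and Col6a3 axes are logarithmic and the Col11a2 axis is linear. Col4a1, Col4a2 and Col6a3 lie between 154 and 502 CPM in Suz12 cKO and at or under 30.6 CPM in wild type, where replicates 1 and 2 form a higher pair, whereas Col11a2 lies between 11.4 and 15.6 CPM in Suz12 cKO and between 5.73 and 9.20 CPM in wild type.

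On the log2 scale, wild type libraries differed far more among themselves in Col4a1, Col4a2 and Col6a3 than Suz12 cKO libraries did. In CPM the SD was larger in Suz12 cKO (51.7, 32.9 and 27.6, against 15.5, 14.3 and 5.51 in wild type). The medians and shares below are over all tested genes and not over genes of like level. The standard deviation of log2 CPM was 0.17, 0.10 and 0.22 in Suz12 cKO for Col4a1, Col4a2 and Col6a3, near or below the median of 0.23 over all tested genes. In wild type it was 4.31, 2.52 and 1.97, against a median of 0.25, and 98.0% and 93.7% of tested genes varied less than Col4a2 and Col6a3. For Col4a1 that spread includes the single count in wild type replicate 4. For Col11a2 the standard deviation was 0.23 in Suz12 cKO and 0.31 in wild type, and 57.9% of tested genes varied less in wild type.

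Set against the Suz12 cKO mean, the wild type levels of Col4a1, Col4a2 and Col6a3 were alike within replicate 1 and within replicate 2. Wild type replicate 1 held 5.07% of the Suz12 cKO mean for Col4a1, 5.03% for Col4a2 and 5.89% for Col6a3. Wild type replicate 2 held 6.66%, 6.12% and 5.67% for Col4a1, Col4a2 and Col6a3. In wild type replicates 3 and 4 all these shares were at or under 0.691%. Col11a2 had 67.7%, 64.7%, 55.8% and 42.2% of its Suz12 cKO mean in wild type replicates 1 to 4. Suz12 was lower in wild type replicates 1 and 2 (56.5 and 56.3 CPM) than in replicates 3 and 4 (73.9 and 68.9 CPM). Of the higher pair, replicate 2 was high in haemoglobin transcripts and replicate 1 was not (2.35 CPM). The part of either in these levels was not tested.

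Across the family, the type IV pair and Col6a3 made up nearly all collagen counts in Suz12 cKO and a smaller, uneven share in wild type. All 44 collagen genes summed to 1248, 1229 and 1070 CPM in Suz12 cKO, against 108, 138, 43.7 and 54.2 CPM in wild type. Col4a1, Col4a2 and Col6a3 together held 94.7%, 93.1% and 92.0% of those sums in Suz12 cKO, against 53.3%, 50.1%, 8.26% and 3.88% in wild type. The 40 collagen genes outside the 4 summed to 54.3, 69.3 and 72.0 CPM in Suz12 cKO, against 41.0, 60.2, 32.5 and 46.4 CPM in wild type. These last sums overlapped between the groups, in contrast with the totals, but only through wild type replicate 2. Col3a1 stood at 8.16 CPM in that library, against at most 1.32 CPM in any other.

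**Figure D2:**
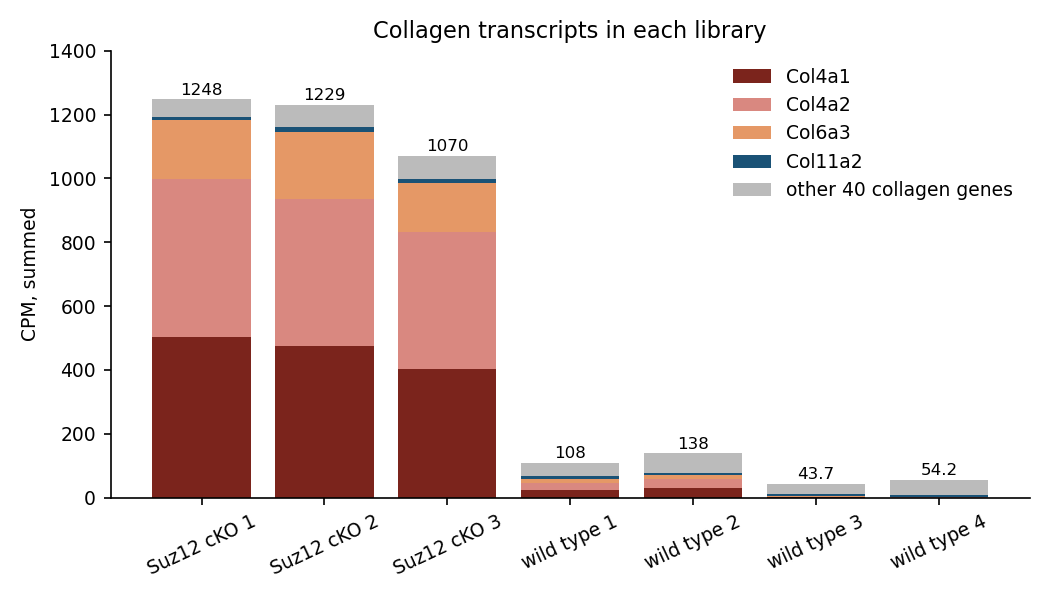
Summed CPM of all 44 collagen genes in each library, Suz12 cKO left of wild type, with the 4 collagen genes described in colour and the other 40 in grey. The totals are 1070 to 1248 CPM in Suz12 cKO and 43.7 to 138 CPM in wild type, while the grey part lies between 54.3 and 72.0 CPM in Suz12 cKO and between 32.5 and 60.2 CPM in wild type.

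The order of collagen genes per unit length differed between the groups. In Suz12 cKO it ran Col4a2 (71.9 ± 5.12 RPKM), Col4a1 (69.4 ± 7.82), Col6a3 (16.8 ± 2.54), Col15a1 (6.41 ± 1.04), Col20a1 (2.78 ± 0.892) and Col11a2 (2.42 ± 0.377 RPKM; SD, n = 3). The neighbours Col4a2 and Col4a1, and Col20a1 and Col11a2, did not differ beyond their spread. In wild type Col15a1, a basement membrane zone collagen, came first at 4.74 ± 0.740 RPKM. It was followed by Col20a1 (2.18 ± 0.308), Col4a2 (2.10 ± 2.23), Col4a1 (2.08 ± 2.34), Col11a2 (1.40 ± 0.278) and Col6a3 (0.533 ± 0.508 RPKM; SD, n = 4), and the spread of the type IV genes spans most of that order. Among all tested genes, Col4a2 exceeded 93.0% by mean RPKM in Suz12 cKO and 30.6% in wild type, and Col6a3 exceeded 70.3% in Suz12 cKO and 19.0% in wild type. Col11a2 exceeded 30.2% of genes in Suz12 cKO and 26.5% in wild type.

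Of the 40 other collagen genes, 12 had no count in any library, 16 were counted but too low to test, and 12 were tested. edgeR called 0 of the 12 higher and 0 lower; 4 were higher at an unadjusted p under 0.05, as were 13.2% of all tested genes. DESeq2 called 3 of the 12 higher (Col9a2, Col9a3 and Col18a1) and 0 lower, beside 9.65% of all tested genes called higher. The median log2 fold change of the 12 was 1.27, against 0.00 over all tested genes, 11 of the 12 were above 0, beside 50.4% of all tested genes, and 5 were higher with no overlap between the groups, beside 14.1%. A low gene can pass the expression filter through the group in which it is high, so these counts lean towards differences.

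The basement membrane zone gene Col15a1 had 29.6, 32.4 and 40.3 CPM in Suz12 cKO, against 26.8, 22.5, 21.5 and 30.0 CPM in wild type (log2 fold change 0.44, SE 0.16, edgeR adjusted p = 0.126). Col20a1 and Col27a1 overlapped between the groups (log2 fold changes 0.35 and 0.11, edgeR adjusted p = 0.438 and 0.954). Col14a1, a fibril-associated collagen, had 3.91, 4.89 and 11.2 CPM in Suz12 cKO, against 1.24, 3.68, 0.477 and 0 CPM in wild type (edgeR adjusted p = 0.261). Col9a2 and Col9a3, chains of the cartilage-associated type IX collagen, had log2 fold changes of 3.86 and 2.30 (edgeR adjusted p = 0.0852 and 0.135). Their levels were low, at or under 2.18 CPM in every library. Col18a1, whose product carries the endostatin fragment, had 0.473, 1.84 and 2.24 CPM in Suz12 cKO, against 0.199, 0, 0 and 0 CPM in wild type (edgeR adjusted p = 0.118). Without wild type replicate 1 its adjusted p was 0.0325.

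The chains that normally assemble with type VI and type XI collagen were nearly absent. Col6a1 had 1, 31 and 0 counts in Suz12 cKO, against 0, 81, 0 and 0 counts in wild type, and Col6a2 had 10, 10 and 0 counts in Suz12 cKO, against 0, 31, 0 and 0 counts in wild type. In Suz12 cKO replicate 3 both partners had no count, where 3 counts would be 0.0426 CPM, beside 10978 counts of Col6a3. Col11a1 had no count in any library. Col2a1 had no count in Suz12 cKO and 17, 0, 0 and 0 counts in wild type. Of the other type IV chains, Col4a3, Col4a4, Col4a5 and Col4a6 stayed at or under 58 counts in every library, beside 28714 to 31811 counts of Col4a1 in Suz12 cKO.

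**Figure D3:**
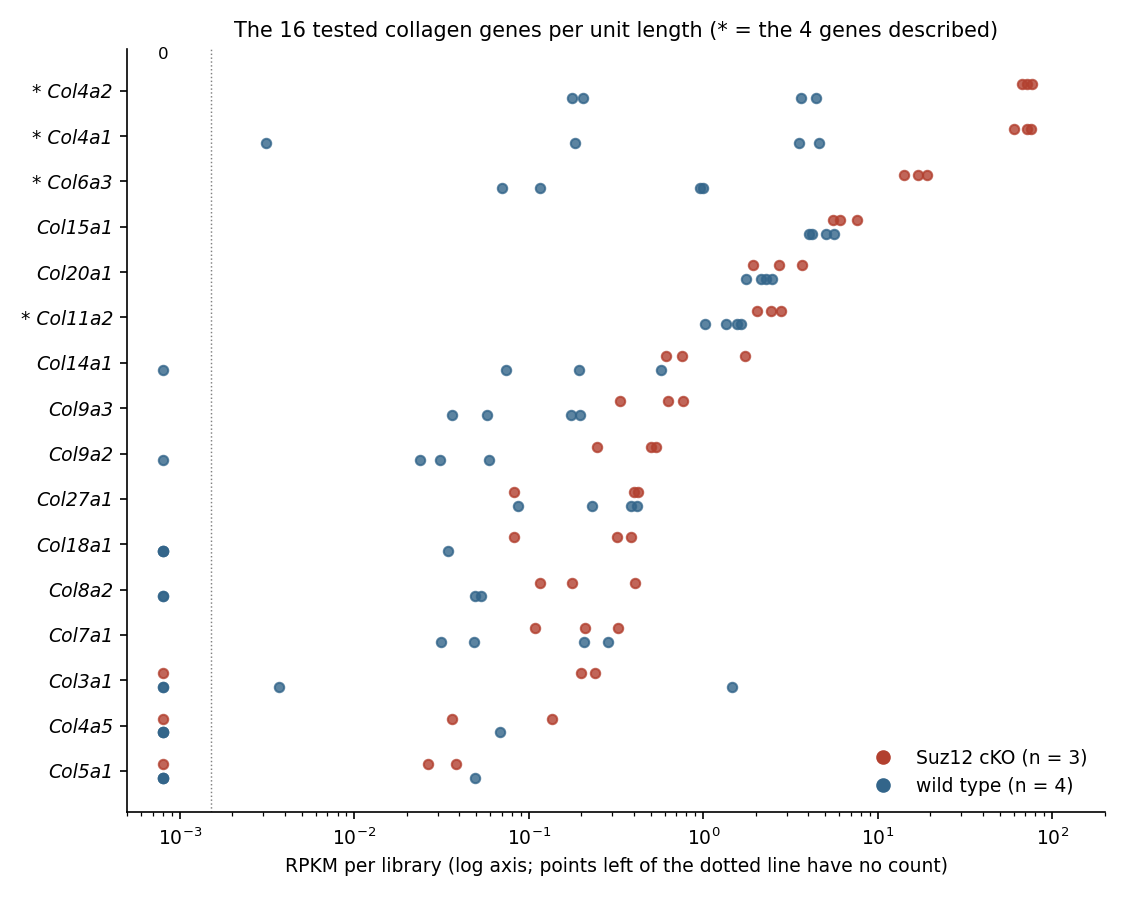
RPKM per library, on a logarithmic axis, of the 16 collagen genes that passed the expression filter, ordered by mean in Suz12 cKO (red, above blue for wild type); points left of the dotted line have no count. Col4a2, Col4a1 and Col6a3 lie at 14.2 to 77.0 RPKM in Suz12 cKO, apart from their wild type values of at most 4.63 RPKM. Col15a1, Col20a1, Col27a1, Col7a1, Col3a1, Col4a5 and Col5a1 overlap between the groups.

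Because fibroblasts and endothelial cells of the lung also make type IV and type VI collagen, their markers were read in the same libraries. The 11 fibroblast markers summed to 31.5, 42.2 and 33.6 CPM in Suz12 cKO, against 2.39, 23.9, 0.272 and 0.206 CPM in wild type. Nearly all of the Suz12 cKO sum was Pdgfra, a growth factor receptor gene, at 29.6, 37.0 and 33.6 CPM in Suz12 cKO against 2.39, 1.30, 0.272 and 0 CPM in wild type (log2 fold change 5.03, SE 0.94, edgeR adjusted p = 0.0118). The other 10 summed to 1.93, 5.24 and 0 CPM in Suz12 cKO, against 0, 22.6, 0 and 0.206 CPM in wild type. The defining fibroblast genes Dcn, Col1a1, Col1a2 and Col3a1 summed to 112, 265 and 0 counts in Suz12 cKO, against 0, 1274, 0 and 1 counts in wild type. The part of fibroblast RNA in the collagen levels was not tested.

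The 14 endothelial markers summed to 159 to 198 CPM in Suz12 cKO and to 146 to 167 CPM in wild type, of which Vwf, which encodes von Willebrand factor, made up 86.5 and 97.9 CPM on average. The defining genes Cdh5, Cldn5 and Kdr were at 0 in Suz12 cKO replicate 3 and at or under 1.67 CPM in the other Suz12 cKO libraries. The 10 pericyte and smooth muscle markers summed to 3.48 to 5.12 CPM in Suz12 cKO and to 4.24 to 5.58 CPM in wild type, with Rgs5 at or under 0.122 CPM in every library. The 8 cartilage markers summed to 1.92 to 8.65 CPM in Suz12 cKO and to 0.136 to 2.86 CPM in wild type, and Acan and Col2a1 were at 0 in 6 of the 7 libraries each. The 10 epithelial markers summed to 21.5 to 75.4 CPM in Suz12 cKO and to 16.2 to 91.9 CPM in wild type, with Sftpc at 0 in Suz12 cKO replicate 3. The 6 lymphocyte markers summed to 3.08 to 33.3 CPM in Suz12 cKO and to 1.36 to 28.9 CPM in wild type.

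Neutrophil markers did move with genotype: the 8 summed to 118 to 174 CPM in Suz12 cKO and to 56.4 to 66.9 CPM in wild type, 4 of the 5 tested were called higher, beside 6.28% of all tested genes, S100a8 among them (log2 fold change 1.96, edgeR adjusted p = 0.00447), and the defining gene Ly6g had no count in any library. The 5 mesothelial markers summed to 316 to 358 CPM in Suz12 cKO and to 425 to 480 CPM in wild type, almost wholly from Krt19, while Msln and Upk3b were at or under 1.35 CPM in every library. The part of these 2 lists in the collagen levels was not tested. The 5 erythroid markers found in the table summed to 1.92 to 150 CPM in Suz12 cKO and to 2.35 to 41.5 CPM in wild type. Their part in the collagen levels was not tested either.

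Genes that fold, anchor, bind or cut collagen were mostly not called, as was true of all tested genes. Of 95 listed, 66 were tested, 6 were called higher (9.09%, beside 6.28% of all tested genes) and 1 lower (1.52%, beside 4.02%). Their median log2 fold change was 0.92, against 0.00 over all tested genes, and the listed genes left were too low to test. The number called higher was 21 without wild type replicate 2 and 15 with DESeq2. Over all genes the number called higher rose too, from 906 to 1515 without wild type replicate 2 and to 1393 (9.65%) with DESeq2.

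Among 33 folding and cross-linking genes, 24 were tested, 1 rose and 1 fell, beside 6.28% and 4.02% of all tested genes. Plod2, a lysyl hydroxylase that prepares collagen for cross-linking, rose to 4.56 ± 0.973 CPM in Suz12 cKO, against 0.517 ± 0.204 CPM in wild type (log2 fold change 3.14, SE 0.51, edgeR adjusted p = 0.00658). Its relative Plod1 fell to 75.9 ± 3.91 CPM in Suz12 cKO, against 104 ± 7.17 CPM in wild type (log2 fold change -0.45, SE 0.09, edgeR adjusted p = 0.0156). The call of Plod1 was lost in 5 of 15 alternatives, among them leaving out Suz12 cKO replicate 1 or 2 (edgeR adjusted p = 0.0594 and 0.0769). P4hb, the shared subunit of the prolyl hydroxylases, stood at 466 ± 12.9 CPM in Suz12 cKO and 574 ± 40.2 CPM in wild type (edgeR adjusted p = 0.0523, and 0.0479 or 0.0466 without wild type replicate 2 or 4). The galactosyltransferase gene Colgalt1 was the most abundant of the list per unit length, at 833 ± 56.7 CPM in Suz12 cKO and 869 ± 51.3 CPM in wild type. The procollagen protease gene Adamts2 had 15.2, 2.70 and 3.43 CPM in Suz12 cKO, against 0.498, 1.61, 0.307 and 0 CPM in wild type (edgeR adjusted p = 0.0905, and 0.0204 without wild type replicate 2).

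Among 23 basement membrane partners, 14 were tested, 2 rose and 0 fell, beside 6.28% and 4.02% of all tested genes. Summed over the list they reached 101, 83.5 and 97.0 CPM in Suz12 cKO, against 41.3, 42.6, 36.5 and 29.7 CPM in wild type. The groups did not overlap in this sum, and 14.1% of all tested genes were likewise higher with no overlap. Lamc1, the laminin γ1 chain found in most laminins, rose to between 30.4 and 39.9 CPM in Suz12 cKO, against 8.19 to 16.2 CPM in wild type (log2 fold change 1.38, SE 0.23, edgeR adjusted p = 0.00668). Agrn, which encodes the heparan sulphate proteoglycan agrin, averaged 26.6 ± 5.87 CPM in Suz12 cKO and 16.7 ± 2.01 CPM in wild type (log2 fold change 0.67, SE 0.18, edgeR adjusted p = 0.0457). That call was lost in 8 of 15 alternatives, among them leaving out Suz12 cKO replicate 1 or 3 or any 1 wild type library, with adjusted p between 0.0538 and 0.147 in those 6. Nid1, which links laminin to type IV collagen, had 14.9, 12.5 and 9.84 CPM in Suz12 cKO, against 0.772, 3.05, 0 and 0 CPM in wild type (edgeR adjusted p = 0.120). Lama5, a laminin chain of the alveolar basement membrane, had 3.36, 2.89 and 3.04 CPM in Suz12 cKO, against 0.112, 0.427, 0 and 0 CPM in wild type (edgeR adjusted p = 0.0716). Both missed the threshold although their groups did not overlap, and in both wild type replicates 3 and 4 had no count. Without wild type replicate 2 both were called, Nid1 at a log2 fold change of 5.45 (edgeR adjusted p = 0.0129) in place of 3.69 and Lama5 at 6.14 (edgeR adjusted p = 0.0103) in place of 4.49.

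Among 16 collagen receptors, 10 were tested, 2 rose and 0 fell, beside 6.28% and 4.02% of all tested genes. The adhesion receptor gene Adgrg1, a collagen receptor in the mouse brain, rose to 77.0, 66.1 and 81.3 CPM in Suz12 cKO, against 24.0, 30.6, 24.1 and 24.6 CPM in wild type (log2 fold change 1.53, SE 0.12, edgeR adjusted p = 4.6e-04). Itga1, the integrin α1 chain that binds type IV collagen, averaged 37.7 ± 2.33 CPM in Suz12 cKO and 28.6 ± 2.11 CPM in wild type (log2 fold change 0.40, SE 0.10, edgeR adjusted p = 0.0450). That call was lost in 11 of 15 alternatives, among them leaving out any 1 library other than wild type replicate 2, with adjusted p between 0.0639 and 0.157 in those 6. Its partner Itgb1 was abundant and overlapped between the groups (616 ± 26.2 CPM in Suz12 cKO and 667 ± 41.9 CPM in wild type). The inhibitory collagen receptor gene Lair1 stood at 107 ± 6.23 CPM in Suz12 cKO and 139 ± 19.2 CPM in wild type (edgeR adjusted p = 0.0881, and 0.0366 without wild type replicate 4). Cspg4, whose product binds type VI collagen, stood at 90.2 ± 19.0 CPM in Suz12 cKO and 56.3 ± 16.8 CPM in wild type (edgeR adjusted p = 0.0979, and 0.00816 without wild type replicate 2).

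Among 23 genes of collagen breakdown, 18 were tested, 1 rose and 0 fell, beside 6.28% and 4.02% of all tested genes. Mmp2, a gelatinase that cuts type IV collagen, rose to 21.8, 20.7 and 45.2 CPM in Suz12 cKO, against 3.27, 2.81, 1.53 and 0.990 CPM in wild type (log2 fold change 3.76, SE 0.45, edgeR adjusted p = 0.00195). The other gelatinase gene, Mmp9, stayed at or under 2.98 CPM (edgeR adjusted p = 0.0810, and 0.0122 without wild type replicate 2). Ctsk, a lysosomal collagenase, had 287, 275 and 705 CPM in Suz12 cKO, against 985, 812, 769 and 748 CPM in wild type (log2 fold change -0.97, edgeR adjusted p = 0.0886). Without Suz12 cKO replicate 3 the log2 fold change of Ctsk was -1.57 (edgeR adjusted p = 0.00232). It was -1.53 within the high haemoglobin libraries, where wild type replicate 2 was the only wild type library. Within the low ones, where Suz12 cKO replicate 3 was the only Suz12 cKO library, it was -0.25. Ctsl averaged 372 ± 17.8 CPM in Suz12 cKO and 286 ± 45.9 CPM in wild type (edgeR adjusted p = 0.102, and 0.0198 without wild type replicate 2). Ctss was the most abundant of the list, at 4487 ± 64.1 CPM in Suz12 cKO and 4775 ± 601 CPM in wild type.

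**Figure D4:**
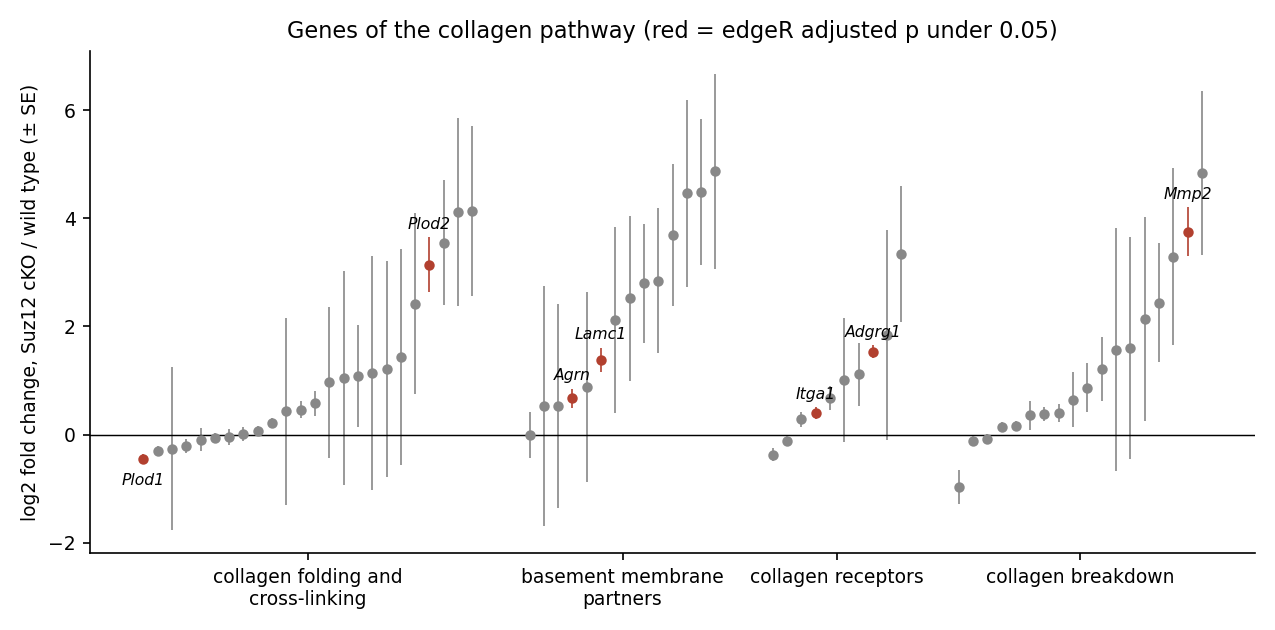
log2 fold change (Suz12 cKO over wild type) ± SE of each tested gene in the 4 collagen pathway lists, ordered within a list; red genes had an edgeR adjusted p under 0.05. Plod2, Lamc1, Agrn, Itga1, Adgrg1 and Mmp2 lie above 0 and Plod1 below it.

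Of the 6 nearest protein-coding neighbours in GENCODE, 1 was called, next to Col6a3, beside 10.3% of all tested genes called in either direction. Irs2 and Rab20, which flank the type IV pair, were not called (log2 fold changes 0.43 and 0.93, edgeR adjusted p = 0.647 and 0.344). Without wild type replicate 2 both were called higher (log2 fold changes 1.04 and 1.72, edgeR adjusted p = 0.0340 and 0.00392). Rab20 lies 4230 bases beyond Col4a2. Rab20 was highest in the 3 libraries high in haemoglobin, with 42.1, 38.9 and 21.3 CPM in Suz12 cKO, against 8.40, 41.1, 9.61 and 12.8 CPM in wild type. Mlph, the melanophilin gene 71113 bases upstream of Col6a3, rose to 137, 206 and 139 CPM in Suz12 cKO, against 76.6, 51.0, 47.7 and 41.0 CPM in wild type (log2 fold change 1.57, SE 0.23, edgeR adjusted p = 0.00389). On the other side of Col6a3, Cops8 was not called (log2 fold change -0.06, edgeR adjusted p = 0.820). Beside Col11a2, Rxrb ends 1037 bases before the GENCODE start of the gene and shares no exon base with it. Rxrb and H2-Oa were not called (log2 fold changes 0.08 and 0.34, edgeR adjusted p = 0.721 and 0.326).

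Genes with the most similar profiles were ranked by the root-mean-square difference of centred log2 CPM over the 7 libraries, a description with no test. Col4a2 and Col6a3 differed from each other by 0.53, and Col4a2 and Col4a1 by 1.66. The distances of Col4a1 include its single count in wild type replicate 4, below the limit of 3 counts, whereas in the other 6 libraries its RPKM was 0.910 to 1.05 times that of Col4a2. Closest to Col4a2 were the homeobox gene Hoxc4 (0.35), the sialic acid hydroxylase gene Cmah (0.39) and the activin-type receptor gene Acvr1c (0.40). Closest to Col6a3 were the transcription factor gene Sim2 (0.28), Tmem98 (0.38) and the homeobox gene Hoxa11 (0.43). None of the genes named for Col4a2 and Col6a3 had a count in wild type replicates 3 and 4. Their log2 CPM there came from the prior count of 2 alone, so these small distances partly reflect that floor. Col4a2 had 67 and 64 counts in those 2 libraries, and Col6a3 had 74 and 37. Hoxc4 stood at 12.3, 15.3 and 13.1 CPM in Suz12 cKO, against 0.909, 1.31, 0 and 0 CPM in wild type. Closest to Col4a1 were Gas6, a secreted ligand of receptor kinases (1.04), followed by Plcb4 and Pdgfra (1.22), each with no count in wild type replicate 4. Closest to Col11a2 were Plekha8 (0.09), Prss30 (0.11) and Tecpr2 (0.12), of which none was called.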

How the data were processed

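TruSeq libraries of polyA RNA from 7 sorted samples were sequenced as single-end 85 bp reads, per the labels and design text. The deposited values are whole-number counts for each gene; the authors used featureCounts and mm10, per the submitters' processing notes. No source used here gives the aligner, annotation or strand setting. The 7 single-library files held the same counts as the series table. RefSeq names (GRCm38.p6) matched 25275 of 27179 Entrez numbers, and unmatched genes held 0.829% of counts.

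Genes were filtered with filterByExpr (minimum count 10, minimum total 15), which left 14436. Genotype was tested with edgeR 4.0.16 (quasi-likelihood, TMM scaling, R 4.3.3) over all of them, with Benjamini-Hochberg adjustment and a threshold of 0.05. CPM and RPKM use TMM-scaled totals and the deposited gene length. The SE is the size of the log2 fold change divided by the square root of F. Log2 CPM used a prior count of 2. The fit was tested on simulated counts. Samples were grouped by title. Replicate pairs differed beyond sampling noise (chi-square over degrees of freedom of 47.0 or more), so none was a copy. Alternatives were DESeq2 1.42.0, other scalings, no filter, each library left out, a replicate block and a haemoglobin split at 20 CPM. The 4 collagen genes, the gene lists and the haemoglobin split were chosen with earlier results of these data known. Genes named were the 4, the called and the 5 most abundant other collagen genes, the 4 smallest p-values and 2 highest levels per pathway list, defining markers, neighbours and the 3 nearest profiles; Col9a2, Col18a1, Col7a1, Marco, Fabp4, Mrc1, Cd68 and the partner chains of types II, IV, VI and XI were named after their values were seen.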

Additional observations from a re-analysis of the deposited data

Results flagged for a closer look

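The ratio of Col4a1 to Col4a2 per unit length in wild type was singled out because 1 library lay far from the others: it was 0.0152 in wild type replicate 4 against 0.974, 1.05 and 1.03 in wild type replicates 1, 2 and 3, and its gap to the nearest value was 0.925 of the whole range. Chance alone marks about 1 in 20 groups of 4 in this way. The library held 1 count of Col4a1 and 64 counts of Col4a2; the cause was not tested.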

How the results depend on the processing

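The log2 fold changes of the 4 collagen genes kept their sign in all 15 alternatives. They ran from 4.00 to 5.78 for Col4a1, 4.08 to 5.72 for Col4a2, 4.25 to 5.46 for Col6a3 and 0.62 to 0.90 for Col11a2. Each shift was less than 1 SD of log2 CPM, pooled within the groups. That limit is wide for Col4a1, Col4a2 and Col6a3, whose wild type SD was 4.31, 2.52 and 1.97. Over all genes, the numbers called higher and lower (906 and 580) were 447 to 1515 and 268 to 885 with 1 library left out. DESeq2 called 1393 higher, and within the low and high haemoglobin libraries 367 and 328 were lower. Of the other collagen genes, 0 to 1 were called higher with 1 library left out, 3 with DESeq2 and 1 (Col15a1) with a haemoglobin term, and 1 (Col3a1) was lower within the high haemoglobin libraries. Of pathway genes, 4 to 21 were called higher and 0 to 3 lower with 1 library left out. They numbered 10 and 2 with a haemoglobin term, 11 and 0 within the low haemoglobin libraries, and 15 and 3 with DESeq2. Deviations of same-numbered libraries correlated at -0.0411, 0.242 and 0.158, and those of differently numbered libraries at -0.256 to 0.117. So few pairs cannot show whether the replicate numbers pair the libraries. With the replicate block 585 genes were higher and 278 lower, with 0 pathway genes lower. Uncalled genes that changed sign were Col27a1 (-0.22 to 0.55 with 1 library left out, -0.78 within the high haemoglobin libraries), Irs2 (-0.045 with a haemoglobin term, -0.31 within the high haemoglobin libraries), Rab20 (-0.018 within the same) and, within the low haemoglobin libraries, Col20a1 (-0.17), H2-Oa (-0.0092) and Rxrb (-0.032). The cause of these changes was not tested. Fits within 3 or 4 libraries assume that a lone library varies like the others.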
